A study of Mus musculus with 2 samples.

Results

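Described here are 9 genes of heat shock proteins and cochaperones that germ cells use: Hspa1l, Hspa2, Hspa4l, Hsp90aa1, Dnajb3, Dnajb4, Dnajb8, Dnajb13 and Bag5. They were chosen as a list of symbols and read in the 13 deposited cell clusters of both libraries, and all 9 were among the 5476 symbols, of 25065 listed, that could be tied to exactly 1 row of the count matrix. The study deleted Tex13a, a germ cell gene, in mice and profiled single testis cells. One library came from wild-type (WT) testes and one from Tex13a knocked-out (KO) testes, so the comparison of genotypes has no replicates. Both were from adult mice of the C57BL/6 strain in the labels (C57BL/6N in the study's methods), and the KO carried a CRISPR deletion of the Tex13a reading frames. Testes of several mice were pooled before capture in each library, so the spread between animals cannot be seen.

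Heat shock proteins of the HSP70 and HSP90 classes bind unfolded or partly folded proteins and release them in a cycle driven by ATP. J-domain cochaperones (the DNAJ genes) deliver clients to HSP70 and stimulate its ATPase, and nucleotide exchange factors, which include the HSP110 relatives and BAG proteins, reset it. Male germ cells carry several forms made mainly in the testis, and they use them through meiosis and while the round spermatid is reshaped into a sperm cell.

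The WT library held 5170 cells and 45568532 UMIs (unique molecular identifiers, each counting 1 captured transcript), and the KO library 7238 cells and 67734689 UMIs. Clusters ranged from 130 to 700 cells in WT and from 99 to 1057 cells in KO. No cell barcode was shared between the libraries. Levels below are CPM, the UMIs of a gene scaled to a total of 1000000 UMIs in each cluster and library, and every interval is an exact 95% one that covers counting error only. The cluster labels ran from spermatogonia (Sg) through spermatocytes (Sc1, Sc2) to spermatids (Sd1 to Sd10), and summed marker lists followed that order only in part. In both libraries the spermatogonial and the spermatocyte list were highest in Sc1, the round spermatid list in Sd4 and the late spermatid list in Sd8. In WT the spermatogonial list stood at 3130 CPM in Sg and 6974 CPM in Sc1. The late spermatid list went from 301570 CPM in WT Sd8 to 194997 CPM in WT Sd10. In WT, Stra8, a gene of meiotic entry, was highest in Sc1 at 4287 CPM, Acrv1, of the acrosome, in Sd4 at 885 CPM, and Oaz3, of late spermatids, in Sd10 at 30623 CPM. Of somatic markers, Cd68, of macrophages, stayed at or below 1.46 CPM in WT and 1.65 CPM in KO. Cyp17a1, of Leydig cells, reached 5.34 CPM in WT and 10.2 CPM in KO, both in Sd9, and Myh11, of myoid cells, reached 14.0 CPM in WT Sg and 5.11 CPM in KO Sd10. No Sertoli or endothelial marker could be tied to 1 row. The red blood cell markers Hba-a1 and Hbb-bs together ranged from 1.89 to 437 CPM over the WT and from 3.51 to 615 CPM over the KO clusters, highest in WT Sd9 and KO Sd8. Their sum was 5.74 CPM in WT and 615 CPM in KO in Sd8, and 437 and 9.01 CPM in Sd9. In Sd10 Hba-a1 was at 8.78 CPM in WT and 2.27 CPM in KO. Their part in the results was not tested.

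Sequence is given first for letters that bear on the deleted gene. The zinc finger of Tex13a is described as binding AGGUAA in single-stranded RNA, which reads AGGTAA in the transcript sequences. Of 9 members, only Hspa4l and Hsp90aa1 held it in their longest principal GENCODE transcript (GRCm38), always in the 3′ untranslated region, against 29.2% of 21901 coding genes. Hspa4l held 3 copies in a transcript of 9479 bases and Hsp90aa1 held 1 in 3281 bases, where the median over all genes was 2565 bases. The 4 copies are shown with 12 bases on each side and the searched letters in capitals, in transcript order.
Hspa4l, first copy: tgttacatcagtAGGTAAaatacataatgt
Hspa4l, middle copy: atgcattgaaatAGGTAAtactagatgcaa
Hspa4l, last copy: tccctgagtttgAGGTAAgcctgatttaca
Hsp90aa1: actatagggggcAGGTAAagagcactaacc
A match is only the presence of these letters. Dnajb3, Dnajb4 and Bag5, the members with the largest KO to WT ratios in Sd10 below, had 0 copies.

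Windows of 250 bases before the RefSeq start (GRCm38.p6) were read for the 8 members that had one, and the letters searched on both strands were chosen after the windows were seen. GAANNTTC, the core of a heat shock element, was in 0 of the 8 members and in 6.69% of 32851 windows of all genes. The full cAMP response element TGACGTCA was also in 0 members, against 1.55% of windows, and TATAAA in 0 against 12.4%. The shorter TGACGT, which TGACGTCA contains, was in Hspa1l and Dnajb4 against 6.47% of windows, and CCAAT was in Hspa1l, Hspa2 and Dnajb3 against 33.8%. The other phase of the heat shock repeat, TTCNNGAA, was in 1 member, Dnajb4, against 7.17% of windows. The windows of Dnajb4, which has 2 starts in RefSeq, and of Dnajb3 are printed because these genes passed 1.5-fold in Sd10 and held searched letters, and that of Hspa2 as a gene of the spermatocyte clusters. Bag5 also passed 1.5-fold, and its windows held none of the searched letters. Capitals mark matches to these letters on either strand.
Dnajb4, upstream start, chr3:152210084-152210333, minus strand: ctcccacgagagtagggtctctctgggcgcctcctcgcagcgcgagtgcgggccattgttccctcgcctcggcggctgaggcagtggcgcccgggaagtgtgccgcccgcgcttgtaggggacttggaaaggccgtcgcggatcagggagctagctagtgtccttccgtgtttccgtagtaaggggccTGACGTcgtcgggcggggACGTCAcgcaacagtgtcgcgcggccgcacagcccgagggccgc
Dnajb4, downstream start, chr3:152193846-152194095, minus strand: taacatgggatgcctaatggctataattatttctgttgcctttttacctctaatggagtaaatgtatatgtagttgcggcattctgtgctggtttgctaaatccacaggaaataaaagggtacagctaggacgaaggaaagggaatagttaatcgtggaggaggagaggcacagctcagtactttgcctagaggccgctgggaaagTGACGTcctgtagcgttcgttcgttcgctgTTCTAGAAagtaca
Dnajb3, chr1:88205749-88205998, minus strand: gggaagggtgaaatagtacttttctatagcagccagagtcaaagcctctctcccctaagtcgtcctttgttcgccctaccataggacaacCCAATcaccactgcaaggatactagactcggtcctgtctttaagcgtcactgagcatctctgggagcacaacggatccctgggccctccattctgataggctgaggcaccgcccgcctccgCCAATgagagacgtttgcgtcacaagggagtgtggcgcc
Hspa2, chr12:76404120-76404369, plus strand: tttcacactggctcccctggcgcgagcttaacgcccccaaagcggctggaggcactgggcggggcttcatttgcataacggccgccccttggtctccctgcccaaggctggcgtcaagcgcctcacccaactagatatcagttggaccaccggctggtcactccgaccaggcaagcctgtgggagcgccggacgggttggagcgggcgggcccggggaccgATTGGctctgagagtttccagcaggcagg

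The members were at their highest level at different points of germ cell development. In WT, Hspa2 and Hsp90aa1 were highest in spermatocytes (Sc2), Dnajb13 in Sd4, Bag5 in Sd5, Hspa1l in Sd8, Dnajb3 in Sd9, and Hspa4l, Dnajb4 and Dnajb8 in Sd10. The cluster of the highest level was the same in KO for 9 of 9 members, and for 83.5% of all 4200 genes with at least 500 UMIs in WT. Among those genes the highest WT level lay in Sc2 for 11.6%, in Sd4 for 9.29%, in Sd5 for 5.88%, in Sd8 for 1.62%, in Sd9 for 3.76% and in Sd10 for 9.21%.

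**Figure D1:**
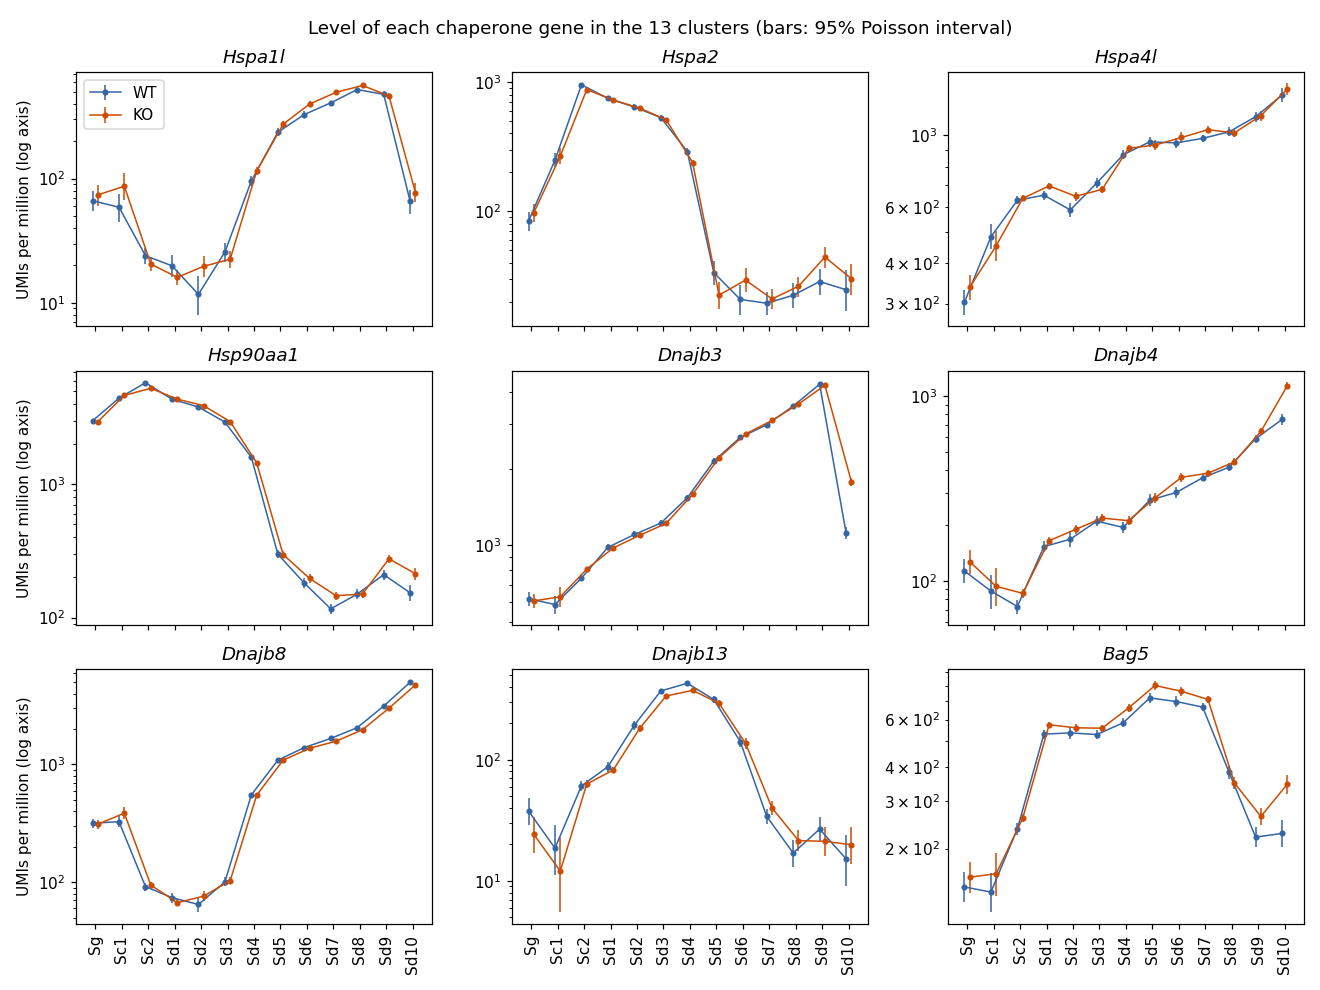
Level of each of the 9 genes in CPM (log axis) in the 13 clusters, with WT in blue, KO in orange and bars for the 95% Poisson interval. The courses of both libraries lie close together in most clusters, and those of Dnajb3, Dnajb4 and Bag5 part in Sd10.

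The spermatocyte chaperones were Hspa2, the HSP70 of meiotic and later male germ cells, and Hsp90aa1, the inducible form of cytosolic HSP90. The Hspa2 gene lies at chr12:76404176-76406938 on the plus strand, and the transcript of it read here has a single exon. Hsp90aa1 lies at chr12:110690605-110702728 on the minus strand. In WT, Hspa2 rose from 84.0 CPM in Sg to 952 CPM in Sc2 (interval 930 to 975) and fell to 290 CPM in Sd4 and 33.6 CPM in Sd5. In KO the same clusters read 97.4, 874, 238 and 22.5 CPM. From Sd5 on, all Hspa2 levels lay between 19.4 and 44.3 CPM in both libraries.

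Hsp90aa1 went from 3002 CPM in Sg to 5797 CPM in Sc2 and down to 116 CPM in Sd7 in WT, and from 2956 to 5267 and 146 CPM in KO. The WT Sd7 cluster held 167 UMIs of Hspa2 per 1000 of Hsp90aa1 (interval 134 to 207), against 164 (160 to 169) in Sc2. The proportion was not the same in every cluster. It was 112 (89.4 to 139) in WT Sd5 and 75.6 (58.7 to 95.9) in KO Sd5, and 28.0 in WT Sg and 56.0 in WT Sc1. The part of free RNA in the late levels was not tested.

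Dnajb13, a J-domain protein of the sperm flagellum, was the member of round spermatids. Its gene lies at chr7:100501716-100514960 on the minus strand, and its exons overlap Ucp2 on the other strand. Its WT level was 87.6 CPM in Sd1, 427 CPM in Sd4 and 17.0 CPM in Sd8, and the KO level 82.1, 374 and 21.5 CPM. The KO level in Sd4 was lower by a log2 ratio of -0.19 (interval -0.28 to -0.10).

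Bag5, a BAG-domain exchange factor for HSP70, lies at chr12:111709488-111713257 on the minus strand. It rose to 721 CPM in Sd5 in WT and 802 CPM in KO, and in both libraries the interval of Sd6 overlapped that of Sd5. By Sd9 it had come down to 221 CPM in WT and 263 CPM in KO.

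Hspa1l, an HSP70 of spermatids that neighbours the inducible HSP70 genes, lies at chr17:34972703-34979285 on the plus strand, and its exons overlap Gm10501 on the opposite strand. Hspa1a and Hspa1b are close relatives in sequence, and whether reads were shared among them was not tested. WT levels went from 11.7 CPM in Sd2 to 521 CPM in Sd8, where the interval overlapped that of Sd9 at 477 CPM, and dropped to 65.5 CPM in Sd10. KO levels in Sd2, Sd8, Sd9 and Sd10 were 19.7, 562, 462 and 77.2 CPM.

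Dnajb3, a J-domain cochaperone made in haploid germ cells, is a single-exon gene at chr1:88204732-88205782 on the minus strand. It rose without a break from 584 CPM in Sc1 to 4309 CPM in Sd9 in WT (interval 4229 to 4389), and was at 1115 CPM in Sd10. In KO the Sd9 level was 4266 CPM and the Sd10 level 1779 CPM. Dnajb3 and Hspa1l were thus the members with a late peak that fell into Sd10.

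The members that went on rising into Sd10 were Hspa4l, Dnajb4 and Dnajb8. Hspa4l, an HSP110 relative, lies at chr3:40744495-40796103 on the plus strand and went from 303 CPM in Sg to 1335 CPM in Sd10 in WT, and from 337 to 1395 CPM in KO. Dnajb4, a J-domain partner of cytosolic HSP70, lies at chr3:152178511-152210302 on the minus strand and went from 72.7 CPM in Sc2 to 750 CPM in Sd10 in WT, and from 85.8 to 1142 CPM in KO. Dnajb8, a J-domain protein that holds back aggregation of other proteins, lies at chr6:88222268-88254415 on the plus strand and overlaps 1700031F10Rik on the other strand. It went from 64.7 CPM in Sd2 to 4997 CPM in Sd10 in WT, and from 76.2 to 4743 CPM in KO.

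Spermatid transcripts were also read in the earliest cluster. Dnajb8 was at 317 CPM in WT Sg, where 51.1% of cells had at least 1 UMI, against 98.9% in WT Sd10, at median depths of 6133 and 5271 UMIs per cell. With each cell thinned to 3000 UMIs these shares were 38.4% and 98.9%. Prm1, a protamine gene of late spermatids, was at 21336 CPM in the same Sg cells, and the clusters held 14.9 UMIs of Dnajb8 per 1000 of Prm1 in Sg (interval 13.6 to 16.2), 12.8 in Sd7 (12.5 to 13.1) and 131 in Sd10 (128 to 135). The part of free RNA in the Sg level was not tested, and no expression in Sg is read from it.

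Genes with the most similar course over the 13 WT clusters were named for each member as a description, among 4200 genes, with Pearson's r of log2(CPM + 10). Hspa2 was most like Glt8d1 (r = 0.99), Rpl10l and Wfdc15a. Hsp90aa1 was most like Tbca, a tubulin cofactor, Mcrs1 and Cox6c. Dnajb8 was most like 1700001K19Rik, Lelp1 and Spata3, and Dnajb4 was most like Pgk2, the glycolytic enzyme of sperm (r = 0.99), Rnf139 and Lrrc28. Hspa1l had Odf3b, 1700016P04Rik and H2al1n nearest, and Dnajb13 had Lgals8, Mycbpap and Tsga8. Likeness was lower for Hspa4l, with Ppp1r11 (r = 0.96), Spa17 and Xrra1, for Bag5, with Lkaaear1 (r = 0.96), Dnali1 and Aknaos, and for Dnajb3, with Mtfr1 (r = 0.94), Cep57l1 and 4933438B17Rik. In KO the r of Bag5 with Lkaaear1 was 0.88, and that of Dnajb3 with Mtfr1 was 0.91. The clusters share libraries and depth, and no test was made.

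In Sd10, the last cluster, 3 of 9 members were at least 1.5-fold higher in KO than in WT and 0 were at least 1.5-fold lower. Of all 3674 genes read there, 15.6% were higher and 9.8% lower by that limit. Among 1488 genes with at least 100 UMIs, 7.33% were higher. Dnajb3 stood at 1115 CPM in WT and 1779 CPM in KO, from 1397 and 3135 UMIs, a log2 ratio of 0.67 (interval 0.58 to 0.77). Dnajb4 stood at 750 and 1142 CPM, a log2 ratio of 0.61 (0.50 to 0.72). Bag5 stood at 228 and 346 CPM, a log2 ratio of 0.60 (0.40 to 0.81). Dnajb4 and Bag5 lie just past the limit, at 1.52-fold each. With ratios centred on the median of all genes only Dnajb3 stayed past it (0.63, against 0.56 for both others), and with cells thinned to 3000 UMIs Bag5 did not (0.56), while Dnajb3 reached 1.02.

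The other members of Sd10 were within 1.5-fold. Hsp90aa1 was at 153 CPM in WT and 213 CPM in KO, a log2 ratio of 0.48 (0.22 to 0.74), which was 0.12 with cells thinned to 3000 UMIs. Dnajb8, the most counted member in this cluster, was slightly lower in KO, with a log2 ratio of -0.08 (-0.12 to -0.03). The intervals of Hspa1l (0.24), Hspa2 (0.28), Hspa4l (0.06) and Dnajb13 (0.38) all included 0. With cells thinned to 3000 UMIs the ratio of Hspa1l was 0.998, past the limit, from a gene with 82 UMIs in WT and 136 in KO before thinning. The median log2 ratio was 0.38 over the 9 members and 0.04 over all genes. The member at this median was Dnajb13, from 19 UMIs in WT and 35 in KO, with an interval of -0.46 to 1.28.

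In Sd9, the cluster before, 1 of 9 members was at least 1.5-fold higher in KO and 0 were lower, where 15.9% of 4310 genes were higher and 5.2% lower. The 1 member was Hspa2, at 28.6 CPM in WT and 44.3 CPM in KO (log2 ratio 0.63, interval 0.20 to 1.07), from 75 and 113 UMIs. The KO value was above the other Hspa2 levels from Sd5 on, of which the highest was 33.6 CPM in WT Sd5. As the mean of single-cell CPM the ratio was 0.52, under the limit. Hsp90aa1, the other spermatocyte member, had the next largest ratio in Sd9, 0.39 (0.23 to 0.56). Of the 6 spermatocyte markers read, 5 were also higher in KO Sd9. Their summed level was 171 CPM in WT and 187 CPM in KO (log2 ratio 0.13, interval -0.06 to 0.32). Of the 4 spermatogonial markers read, 2 were higher and 2 lower, with a summed level of 45.0 and 47.0 CPM (0.06, -0.32 to 0.44). Stra8, of this second list, was at 7.25 and 14.9 CPM (1.02, 0.21 to 1.92). The part of these markers in the Sd9 values was not tested. Dnajb3 differed by a log2 ratio of -0.01 (-0.05 to 0.02), Dnajb4 by 0.13 (0.03 to 0.23) and Bag5 by 0.25 (0.09 to 0.42). The difference of these genes was thus smaller in Sd9 than in Sd10, with intervals that do not overlap for Dnajb3 and Dnajb4.

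**Figure D2:**
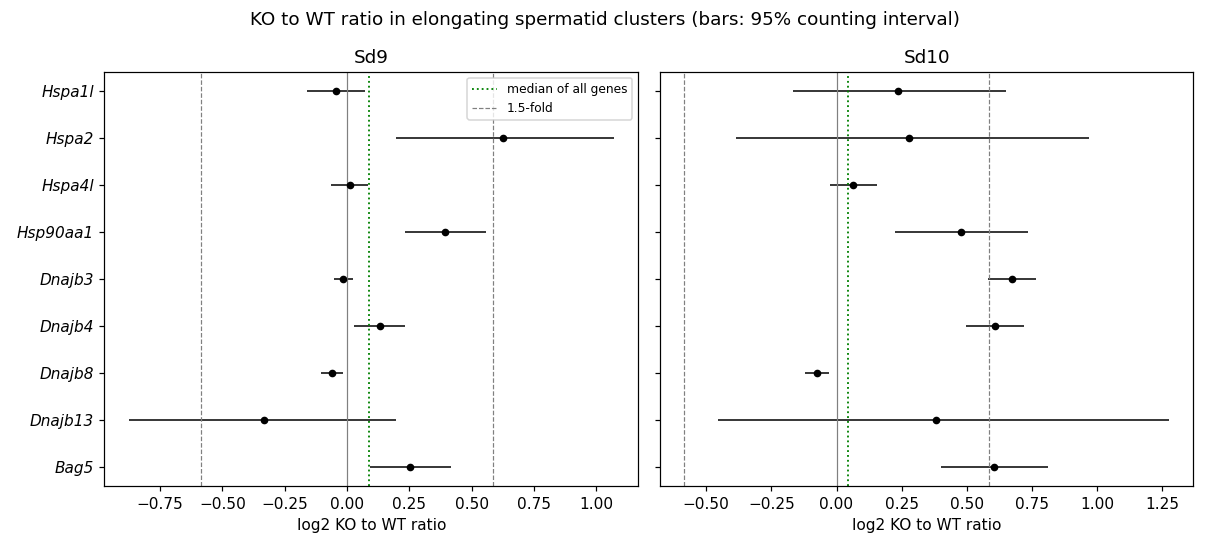
Log2 KO to WT ratio of the 9 genes in Sd9 (left) and Sd10 (right), with 95% counting intervals, dashed lines at 1.5-fold and a dotted line at the median of all genes. Dnajb3, Dnajb4 and Bag5 lie past the upper dashed line in Sd10, and Hspa2 alone does in Sd9.

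Over the 11 earlier clusters, 3 of 99 pairs of member and cluster lay at least 1.5-fold apart, against 10.8% of 51244 pairs of gene and cluster. The latter include every gene with at least 10 UMIs, and a share among better counted genes was not taken for Sd9 or these clusters. The smaller share of the members is thus not read as stability. They were Hspa1l in Sd2 (log2 ratio 0.74), and Dnajb13 in Sg (-0.64) and Sc1 (-0.61). All 3 rested on low counts, of 32 and 111 UMIs for Hspa1l, of 62 and 35 for Dnajb13 in Sg and of 19 and 9 in Sc1 (WT and KO).

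The step from Sd8 to Sd10 was compared within each library. In WT, 3 members (Hspa1l, Dnajb3 and Bag5) were at least 1.5-fold lower in Sd10 and 2 (Dnajb4 and Dnajb8) at least 1.5-fold higher, where 33% of 2773 genes were lower and 25.3% higher. In KO, 2 members (Hspa1l and Dnajb3) were lower and the same 2 higher, where 32.8% were lower and 25.3% higher. Bag5 went from 382 to 228 CPM in WT, a log2 change of -0.75, and from 349 to 346 CPM in KO, a change of -0.01. The KO change exceeded the WT change by 0.74 (interval 0.50 to 0.97). With totals without protamine and transition protein genes the Bag5 changes were -0.995 in WT and -0.27 in KO, and their difference was 0.73. For Dnajb3 the log2 changes were -1.66 in WT and -1.02 in KO, a difference of 0.65 (0.55 to 0.75). For Dnajb4 they were 0.86 and 1.37, a difference of 0.51 (0.36 to 0.66). Hsp90aa1 differed by 0.47 (0.17 to 0.78), but by 0.18 with cells thinned to 3000 UMIs and by 0.11 as the mean of single-cell CPM. Its WT change ran from -0.21 to 0.42 over the alternatives, against 0.03. Dnajb8 differed by -0.02 (-0.08 to 0.05). Of 2773 genes, 244 (8.8%) exceeded 1.5-fold in this difference with the KO change higher, and 270 with it lower. Dnajb3 and Bag5 exceeded it with the KO change higher, though as mean UMIs per cell Dnajb3, at 0.57, did not. From Sd9 to Sd10 Bag5 changed by 0.04 in WT and by 0.40 in KO, a difference of 0.35 (0.09 to 0.62), so its WT level had come down by Sd9 and its KO level dipped there. That of Hsp90aa1 was 0.08 (-0.22 to 0.39) over this step, while Dnajb3 (0.69) and Dnajb4 (0.48) differed about as much as from Sd8.

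Sd10 holds cells at different steps, so its cells were put in order by transcripts that are no members. The order was a score, log2 of the UMIs of Car2, Oaz3 and Gapdhs over those of Tnp1, Tnp2 and Prm3 (1 added to each sum), and the limits of 5 bins were the quintiles of the WT cells. It was chosen after the values of the members in Sd10 were seen. Bins held 35 to 38 WT cells and 45 to 67 KO cells, and the median score of Sd10 was 2.99 in WT and 3.09 in KO. The score genes themselves differed between libraries in Sd10. Tnp1 was at 2313 CPM in WT and 1580 CPM in KO, Tnp2 at 1454 and 1093 CPM, and Prm3 at 3143 and 2940 CPM. Car2 was at 2049 and 2434 CPM, Oaz3 at 30623 and 31904 CPM, and Gapdhs at 7117 and 6748 CPM. All but Gapdhs differ in the direction that raises the score of KO cells, and the part of this in the ratios by bin was not tested.

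Dnajb3 fell along the bins in both libraries and was higher in KO in each of the 5. Its WT levels from the first to the last bin were 2298, 1232, 813, 274 and 138 CPM. Its KO levels were 2907, 2225, 1557, 1122 and 609 CPM. The log2 ratio was 0.34 (interval 0.22 to 0.46) in the first bin and 2.13 (1.59 to 2.73) in the last. Among genes read, 77.5% had a lower ratio than Dnajb3 in the first bin, 96.1% in the last and 87.8% in Sd10 as a whole. In the last bin this share was 88.4% for Dnajb4 and 93.0% for Bag5.

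Dnajb4 lay between 709 and 891 CPM in the WT bins and went from 869 CPM in the first to 1708 CPM in the last KO bin. Its log2 ratio was 0.27 (0.04 to 0.49) in the first and 1.21 (0.97 to 1.47) in the last. Bag5 ended at 143 CPM in WT (interval 97.5 to 201) and at 445 CPM in KO (380 to 518), a log2 ratio of 1.63 (1.09 to 2.24). In its first 4 bins the ratios lay between 0.20 and 0.50, and the interval of the ratio was just above 0 in the first (0.0037 to 0.76) and the fourth (0.0020 to 1.01) and included 0 in the other two.

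Dnajb8 and Hspa4l are the other members that were highest in Sd10. Dnajb8 was at 5690 CPM in WT and 4717 CPM in KO in the last bin, a log2 ratio of -0.27 (-0.38 to -0.17). Hspa4l was at 1230 and 1319 CPM there (0.10, interval -0.11 to 0.32). In the first bin 1 of 9 members was at least 1.5-fold higher in KO, which was Hspa2 from 1 and 10 UMIs, against 12% of 2550 genes. In the last bin it was 4 of 9 (Hspa1l from 2 and 11 UMIs, Dnajb3, Dnajb4 and Bag5), against 28% of 2086 genes. The share of all genes that were higher thus also grew along the score.

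**Figure D3:**
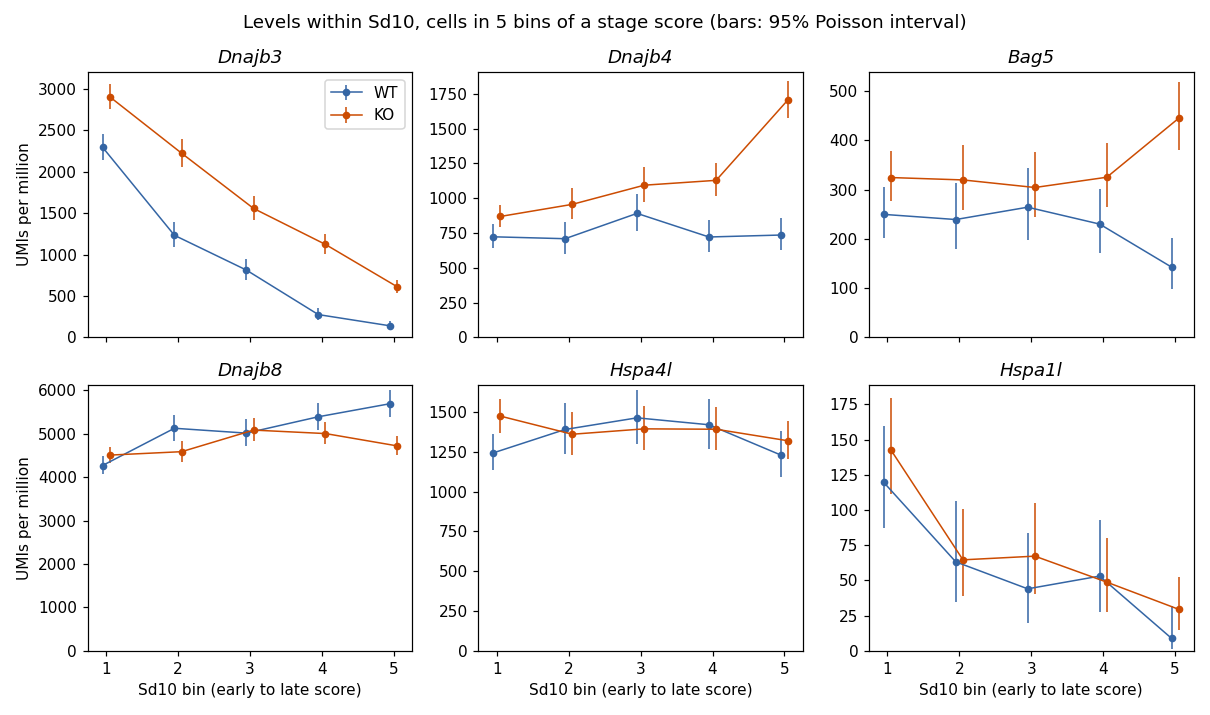
Levels of 6 genes in CPM in 5 bins of Sd10 cells, from the earliest to the latest stage score, with WT in blue, KO in orange and bars for the 95% Poisson interval. Dnajb3 falls in both libraries with KO above WT in every bin, Dnajb4 and Bag5 part most in the last bin, while there Dnajb8 is lower in KO and the interval of the Hspa4l ratio includes 0.

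Prm1, which also fell into Sd10, served as a second measure. Per 1000 UMIs of Prm1, the WT library held 28.9 UMIs of Dnajb3 in Sd9 (interval 28.3 to 29.4) and 29.3 in Sd10 (27.8 to 30.9). The KO library held 30.5 (29.9 to 31.1) and 57.2 (55.2 to 59.3). Dnajb3 and Prm1 thus fell in step in WT, while in KO Dnajb3 fell less than Prm1 did. Prm1 itself was lower in KO in Sd10, at 31101 against 38041 CPM.

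Single cells of Sd10 were higher for Dnajb3, Dnajb4 and Bag5 in KO as well. The median cell held 379 CPM of Dnajb3 in WT and 1327 CPM in KO, and the lower quartile was 137 and 671 CPM. For Dnajb4 the medians were 683 and 1030 CPM, and for Bag5 207 and 252 CPM. At least 1 UMI of Dnajb3 was found in 79.3% of WT and 95.3% of KO Sd10 cells, and in 63.6% and 89.9% with cells thinned to 3000 UMIs, at median depths of 5271 and 5287 UMIs. In Sg, the earliest cluster, the thinned shares were 53.4% and 55.0%. Cells of 1 library are not replicates, and these values describe the libraries.

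Other chaperones were read from lists by class, in which 65 of 118 genes had exactly 1 possible row. In Sd10, 9 of the 55 read were at least 1.5-fold higher in KO and 6 at least 1.5-fold lower, with a median log2 ratio of 0.01, beside the 15.6% and 9.8% of all genes given above. None of the listed genes with at least 100 UMIs in Sd10 was past 1.5-fold. The best counted stayed close. Hspb9, a small heat shock protein of the testis, had a log2 ratio of -0.07 (5702 CPM in WT and 5447 CPM in KO), Odf1, of the sperm tail, had -0.08, and Bag1, an exchange factor like Bag5, had 0.26 (2671 and 3197 CPM). The HSP110 gene Hspa4 was higher in KO from only 12 and 70 UMIs (log2 ratio 2.01, interval 1.16 to 3.07), and Hspa8, the constitutive HSP70, lower from 10 and 2 UMIs (-2.50, -6.04 to -0.58).

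Of the 65 listed genes, 23 had their highest WT level in Sg or Sc1, 24 in Sc2 or Sd1, 6 in Sd2 to Sd4, 6 in Sd5 to Sd8 and 6 in Sd9 or Sd10. Over all 5476 genes the shares were 28.1%, 25.7%, 22.7%, 12.4% and 11.1%. Hsp90ab1, the constitutive HSP90, was highest in Sg at 2894 CPM, and Hspa5 and Hsp90b1, of the endoplasmic reticulum, in Sc1 at 3496 and 2336 CPM. The chaperonin genes, which fold actin and tubulin in the cytosol or serve mitochondria, were highest in Sg or Sc1 for 4 and in Sc2 or Sd1 for 6 of 10. Among J-domain genes, Dnajb6 was highest in Sd1 at 647 CPM, Dnajb7 in Sd5 at 778 CPM and Dnajc5b in Sd7 at 987 CPM. Dnajb1, which dissociation of tissue can induce, was highest in Sd1 at 563 CPM, and was at 36.7 CPM in WT and 23.8 CPM in KO in Sd10.

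**Figure D4:**
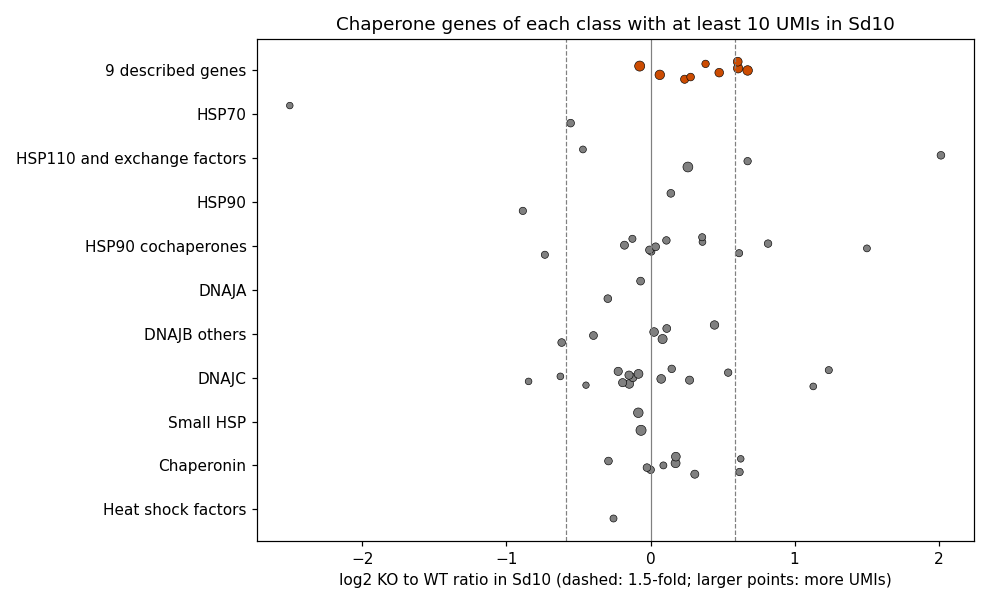
Log2 KO to WT ratio in Sd10 of the 9 described genes (orange) and of the genes of each chaperone class with at least 10 UMIs (grey), with dashed lines at 1.5-fold and larger points for more UMIs. The large grey points lie within the dashed lines, while 3 of the orange points lie past the upper one.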

How the data were processed

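Single cells of WT and KO testes were captured in microwells and sequenced by the authors, 1 library each. Per the submitters' processing notes, FastQC 0.11.7, fastp 1, STAR 2.5.3a, featureCounts 1.6.2 and Seurat 3.2.3 were used, on mm10. Whether counting used strand is not given in the sources used here. The authors deposited raw UMI counts per gene row and cell, and a table with each cell's library, cluster and percent of mitochondrial counts. The cluster labels, set by the authors on these cells, were used unchanged, and no library of the cell table was left out.

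The gene list had 25065 lines for 26758 matrix rows. The 30 mitochondrial symbols were matched to rows so that their sums gave the deposited percent in 12408 of 12408 cells, which 1 matching did (line numbers gave 662). Between these anchors, only rows seen in under 5 cells could be unnamed, and symbols with exactly 1 possible row were used. They held 87.1% of WT and 86.7% of KO UMIs. Without the rule on unnamed rows, Hspa4l, Hsp90aa1 and Dnajb4 had a second possible row.

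UMIs were summed per library and cluster over totals of all rows. Ratios are KO over WT with a prior of 1 UMI, for genes with at least 10 UMIs in both together, and 1.5-fold was the limit. With 1 library per group no test was made. Intervals are Poisson, conditional binomial or Clopper-Pearson at 95%. Only the conditional binomial interval of the Sd10 ratio was tried on simulated data. Those counts were drawn from the Poisson model that the interval assumes, so the trial says nothing of spread between cells or animals. The difference of changes has a conditional odds ratio interval. No doublet caller was run, and as an alternative the deepest 5% of cells per library and cluster were dropped. Named were the 9 members, the 3 most similar genes of each (at least 500 WT UMIs), examples from the 3 highest genes of each chaperone class, and class genes past 1.5-fold with at least 100 UMIs in Sd10. Hspa4 and Hspa8 were named after their values were seen. Members and lists were chosen with earlier results of these data known. Python 3.11.15, numpy 2.4.6, pandas 2.3.3 and scipy 1.17.1 were used.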

Additional observations from a re-analysis of the deposited data

Results flagged for a closer look

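For 5 members the KO to WT difference had opposite directions in different clusters, each beyond its counting interval. The share of all genes with such opposite directions was not counted, so the number does not set the members apart. The difference between clusters was not tested, and there is 1 library per genotype. Hspa2 had a log2 ratio of 0.63 in Sd9 and -0.58 in Sd5, the latter between -0.62 and -0.22 over the alternatives. Bag5 had 0.60 in Sd10 and -0.13 in Sd8. Hsp90aa1 had 0.48 in Sd10 and -0.14 in Sc2, and the Sd10 value was 0.12 with cells thinned to 3000 UMIs, under its counting interval. Dnajb8 had 0.24 in Sc1 and -0.080 in Sd7, the former between 0.057 and 0.25 over the alternatives. Hspa4l had 0.14 in Sd2 and -0.066 in Sd3.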

How the results depend on the processing

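No paired analysis was possible because each genotype has 1 library. The count of members at least 1.5-fold higher in KO in Sd10, 3, became 1 with ratios centred on the median of all genes and 0 at a 2-fold limit. The count in Sd9, 1, became 0 with that centring, as the mean of single-cell CPM, with cells thinned to 3000 UMIs and at 2-fold. Without the 5% of cells with most UMIs it was 1 again, but Hsp90aa1 (0.62) in place of Hspa2 (0.54). No member ratio past 1.5-fold changed sign under an alternative. Of 51 member ratios whose interval excluded 0, 2 did, both with cells thinned to 3000 UMIs: Bag5 in Sd1 (0.12 to -0.039) and Dnajb4 in Sd2 (0.18 to -0.032).

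The chaperone lists had 61 genes with enough UMIs in Sd9, and 13 of them were higher in KO and 3 lower by the 1.5-fold limit. Their median log2 ratio was 0.18. Beside this, 15.9% of all 4310 genes in Sd9 were higher and 5.2% lower, with a median of 0.09. The list counts became 7 and 1 at a minimum of 50 UMIs and 4 and 1 at 2-fold, and 1 was lower with thinning. In Sd10 they were 9 and 6, which became 3 and 1 at 50 UMIs, 5 and 2 with a prior of 10 UMIs, and 4 and 1 at 2-fold, and 10 were lower with no filter.

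Over the alternatives, the log2 ratio in Sd10 was 0.63 to 1.02 for Dnajb3, 0.56 to 0.68 for Dnajb4 and 0.56 to 0.63 for Bag5. With Sd10 cells matched on the stage score, chosen after seeing the data, it was 0.83, 0.61 and 0.61. With totals without protamine and transition protein genes, 12 of 18 changes from Sd8 to Sd10 left their counting interval. Changes were lower with these totals in both libraries. That of Hspa4l went from 0.38 to 0.13 in WT and from 0.45 to 0.20 in KO. The highest cluster of Bag5 moved among Sd4 to Sd7 with the scaling, and as mean UMIs per cell Hspa4l was highest in Sd4. Low counts limit Hspa2, Dnajb13 and Hspa1l in Sd10, and pooled mice limit what the genotype comparison can show.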
